A study of Mus musculus with 7 samples.

Results

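The 37 genes described here encode the ephrin, netrin and slit guidance systems of mouse neural stem cells. They are the genes of the 18145 in the deposited table whose symbols name these families: 13 Eph receptors, 8 ephrins, 4 netrins, the netrin receptor Dcc, 4 UNC5 receptors, 3 Slits and 4 Robo receptors. In all, 22 genes encode receptors and 15 encode ligands. Every one of the 37 passed the filter on low values, and each had at least 11 reads in every library. Epha6 was not analysed here.

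Bulk RNA sequencing was done on neural stem cells at passage 1, with 2 libraries labelled TMut, 2 labelled TFoCa and 3 wild-type (WT) libraries. The series text writes the mutant genotypes as Tet-TMut and Tet-FoCa, and the question, per its title, is how hydroxymethylation of DNA and its formylation and carboxylation each act in neural stem cells. Enzymes of the TET family oxidise 5-methylcytosine stepwise to its hydroxymethyl, formyl and carboxyl forms. The alleles behind each label, the strain and the age of the source animals are not given in the sources used here, and no treatment is named. Each library is counted here as 1 line. The library titles number replicates and do not say whether these were derived separately. The spread within a genotype is the spread between its 2 or 3 libraries.

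Guidance cues are proteins that tell growing axons and migrating cells where to go, and many of them also act on neural progenitors. Ephrins stay on the cell surface and are read by Eph receptor tyrosine kinases on the neighbouring cell, with signalling possible in both cells. Netrins are secreted and attract through DCC or repel through UNC5 receptors. Slits are secreted repellents read by Robo receptors, and netrins and Slits are both made at the floor plate, the ventral midline of the developing neural tube.

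TET enzymes act on methylated cytosines, which in mammalian DNA lie mostly in CG dinucleotides, so CG was counted in the promoters of the guidance genes. The window ran from 250 bases before to 50 bases after the start of the gene, from RefSeq on GRCm38.p6, and 32 of the 37 genes had an entry. The dinucleotide reads the same on both strands. The median promoter of these 32 genes held 21.5 CG, against a median of 7 over 27025 promoters of the same length, and the 32 ranged from 2 to 56. The 27025 promoters were not limited to genes of the deposited table, while the 32 genes all passed the filter on low values. No methylation was measured in these libraries, and the count describes only the letters of the window. Printed next are the 3 genes called in both mutant genotypes against WT (Ntn5, Epha2 and Ephb3) and Ephb2, the Eph receptor with the highest level per kilobase in every WT line. Ntn5 (chr7:45683772-45684071, plus strand) had 3 CG, and 76.2% of all promoters had at least as many. Epha2 (chr4:141300971-141301270, plus strand) had 10 CG, a number reached by 43.9% of promoters. Ephb3 (chr16:21204545-21204844, plus strand) had 23 CG and Ephb2 (chr4:136835963-136836262, minus strand) had 24, numbers reached by 21.6% and 20.0% of promoters. Each sequence is written 5′ to 3′ on the gene's strand, with the CG dinucleotides in capitals.
Ntn5: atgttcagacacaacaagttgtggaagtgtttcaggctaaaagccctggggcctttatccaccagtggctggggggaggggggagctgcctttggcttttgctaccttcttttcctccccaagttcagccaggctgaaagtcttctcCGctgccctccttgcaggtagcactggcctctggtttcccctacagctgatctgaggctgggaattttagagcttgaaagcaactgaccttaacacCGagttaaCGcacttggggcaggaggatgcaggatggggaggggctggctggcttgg
Epha2: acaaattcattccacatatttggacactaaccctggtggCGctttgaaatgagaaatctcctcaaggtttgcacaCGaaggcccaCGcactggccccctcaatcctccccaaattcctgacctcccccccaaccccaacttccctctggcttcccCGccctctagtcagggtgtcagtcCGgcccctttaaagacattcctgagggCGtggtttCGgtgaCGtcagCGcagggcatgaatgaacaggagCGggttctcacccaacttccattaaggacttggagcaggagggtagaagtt
Ephb3: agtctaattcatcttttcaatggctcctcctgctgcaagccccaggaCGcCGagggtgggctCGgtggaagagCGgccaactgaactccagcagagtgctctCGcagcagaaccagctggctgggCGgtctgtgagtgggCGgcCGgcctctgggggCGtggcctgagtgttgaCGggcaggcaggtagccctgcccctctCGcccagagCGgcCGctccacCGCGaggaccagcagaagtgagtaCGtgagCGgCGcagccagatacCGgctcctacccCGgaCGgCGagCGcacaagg
Ephb2: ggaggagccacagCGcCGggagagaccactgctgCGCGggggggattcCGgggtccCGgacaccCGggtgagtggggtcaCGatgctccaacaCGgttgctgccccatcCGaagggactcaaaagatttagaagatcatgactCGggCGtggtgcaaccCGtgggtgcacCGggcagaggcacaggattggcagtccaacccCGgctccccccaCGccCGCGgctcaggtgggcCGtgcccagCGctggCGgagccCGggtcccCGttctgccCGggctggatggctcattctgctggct
The promoters of the 10 genes higher in TMut than in WT held a median of 22.5, those of 12 lower genes 17.5 and those of 10 genes with no call 29. All genes without an entry (Dcc, Slit1, Unc5d, Efnb3 and Ntn1) were among the 17 called lower in TMut. The median of the lower genes therefore covers only part of that group.

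The libraries held 33340167 to 62545457 reads in genes. Values below are the authors' DESeq2-normalized counts, reads divided by 1 size factor per library. Each test is limma's moderated test on log2(normalized count + 1), with all 3 genotypes in 1 model and Benjamini-Hochberg adjustment over 18134 genes; a gene is called at an adjusted p under 0.05, and errors of log2 fold changes are standard errors. Neural stem cell markers were present in every line, at a lower summed level in both mutants: the 11 markers summed to 46690.5 and 33167 normalized counts in TMut, 74523 and 84245 in TFoCa, and 125971 to 127579 in WT. Nes, an intermediate filament of neural stem cells, had 15124 and 11419 normalized counts in TMut, 11475 and 9651 in TFoCa and 14908 to 21385 in WT, and it was not called in either mutant. Sox2, Pax6 and Fabp7, a pair of transcription factors of neural progenitors and a fatty acid binding protein of radial glia, fell in TMut, where 9 of the 11 markers were called lower (20.4% of all genes were), against 2 of 11 in TFoCa (3.52% of all genes); there were 6546 and 6298 normalized counts of Sox2 in TMut, 11738 and 14882 in TFoCa and 17594 to 22162 in WT. Markers of other cells moved with the genotypes too. The 8 neuronal markers summed to 15863 and 9581 in TMut, 46025 and 46997 in TFoCa and 60977 to 65389 in WT, and the 10 mesenchymal markers to 285453 and 200281 in TMut, 363595 and 421863 in TFoCa and 141445 to 154696 in WT. Against WT, all 8 neuronal markers fell in TMut and 1 in TFoCa. Of the 10 mesenchymal markers, 4 rose and 2 (Col1a1 and Pdgfrb) fell in TMut, with a median log2 fold change of 0.28, and 9 rose in TFoCa, with a median of 1.36. Over all genes, 18.4% were called higher in TMut and 5.25% in TFoCa. Of the 7 oligodendrocyte lineage markers the sum was 1824 and 1965 in TMut, 4805 and 5582 in TFoCa and 7403 to 8170.0 in WT. Against WT, 5 of the 7 were called lower in TMut, and 1 (Cspg4) was called higher in TFoCa. The 6 measured astrocyte markers summed to 7479 and 8068 in TMut, 8200.2 and 9939 in TFoCa and 8321 to 8787 in WT. These near-equal sums held single markers that moved apart: in TMut Gja1 rose and the other 5 fell (median -3.10), and in TFoCa 1 of the 6 was called, Mlc1, which fell. The 8 endothelial markers summed to 1874 and 2794 in TMut, 1546 and 564 in TFoCa and 1531 to 2229 in WT. Against WT, Tek, Emcn and Esam were called higher and Cdh5 lower in TMut, and Pecam1 was called lower in TFoCa. The 6 pluripotency markers summed to 7078 and 27622 in TMut, 479 and 565 in TFoCa and 6177 to 12653 in WT. Of these 6, only Tdgf1 was called in TMut against WT, higher, and the median log2 fold change was -0.07 with 3 positive values. In TFoCa against WT all 6 pluripotency markers were called lower, with a median of -4.33. The 6 microglia markers looked for are not among the rows of the table. The part of these shifts in the results below was not tested, and in bulk libraries fewer cells of a type and less RNA per cell cannot be told apart.

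In TMut lines, 27 of the 37 guidance genes were called against WT, 10 higher and 17 lower, where 38.8% of all tested genes were called (18.4% higher and 20.4% lower). The median log2 fold change of the 37 was -0.76, against 0.0022 over all genes. In 33 of the 37 the TMut and WT lines did not overlap, against 67.1% of all genes. In TFoCa lines, 4 of the 37 were called against WT, all higher (Epha2, Ephb3, Slit3 and Ntn5), where 8.77% of all genes were called (5.25% higher and 3.52% lower). None of the 37 was lower there by limma or by edgeR's quasi-likelihood test, against 1 by DESeq2 and 1 at an unadjusted p under 0.05 with limma (Efna2 in both cases). The median of the 37 in TFoCa was 0.39, against -0.019 over all genes, with 28 positive and 9 negative values. The TFoCa and WT lines did not overlap in 22 of the 37, against 45.2% of all genes. Both comparisons use the same WT lines, so their values are set side by side and not as independent evidence.

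**Figure D1:**
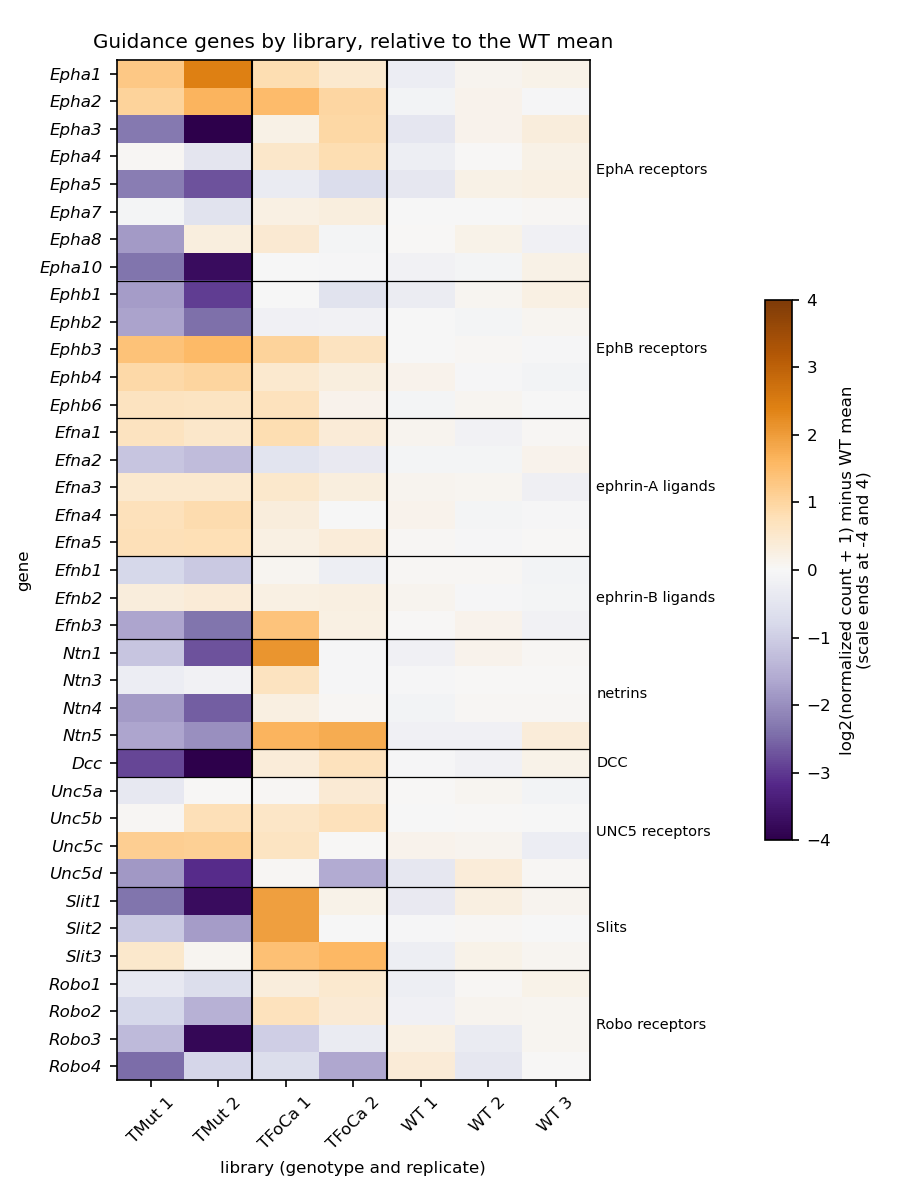
Level of each of the 37 guidance genes (rows, grouped by family) in each library (columns), as log2(normalized count + 1) minus the mean of the 3 WT lines; orange is higher than WT, purple lower, and the colour scale ends at -4 and 4. The TMut columns hold most of the dark purple cells (Dcc, Epha3, Epha10, Slit1 and Robo3), while Ntn1, Slit1 and Slit2 are orange in TFoCa line 1 and near WT in TFoCa line 2.

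The comparison of TMut with TFoCa, which tests the difference between the mutants directly, called 25 of the 37, with 6 higher and 19 lower in TMut, where 35.8% of all genes were called (17.3% higher and 18.5% lower). The median log2 difference of the 37 was -0.91, and in 30 of the 37 the lines of the mutants did not overlap, against 67.5% of all genes. Of the 37 genes, 16 were called lower in TMut against WT and not called in TFoCa against WT, and 8 were called higher in TMut and not called in TFoCa. Epha2 and Ephb3 were called higher in both, Slit3 was called in TFoCa alone, and Ntn5 was called in both with opposite signs. The share of all genes in each of these combinations was not computed. Over all genes, 38.8% were called in TMut against WT and 8.77% in TFoCa against WT. The remaining 9 genes (Epha4, Epha7, Epha8, Robo4, Slit2, Unc5a, Unc5b, Efna1 and Ntn3) were called in neither comparison with WT by limma with all 7 lines. DESeq2 called 4 of these, Epha4 and Unc5b higher in TFoCa (0.69 and 0.66, adjusted p = 0.0157 and 0.0176) and Robo4 and Slit2 lower in TMut (-1.52 and -1.40, adjusted p = 0.0403 and 0.0482).

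**Figure D2:**
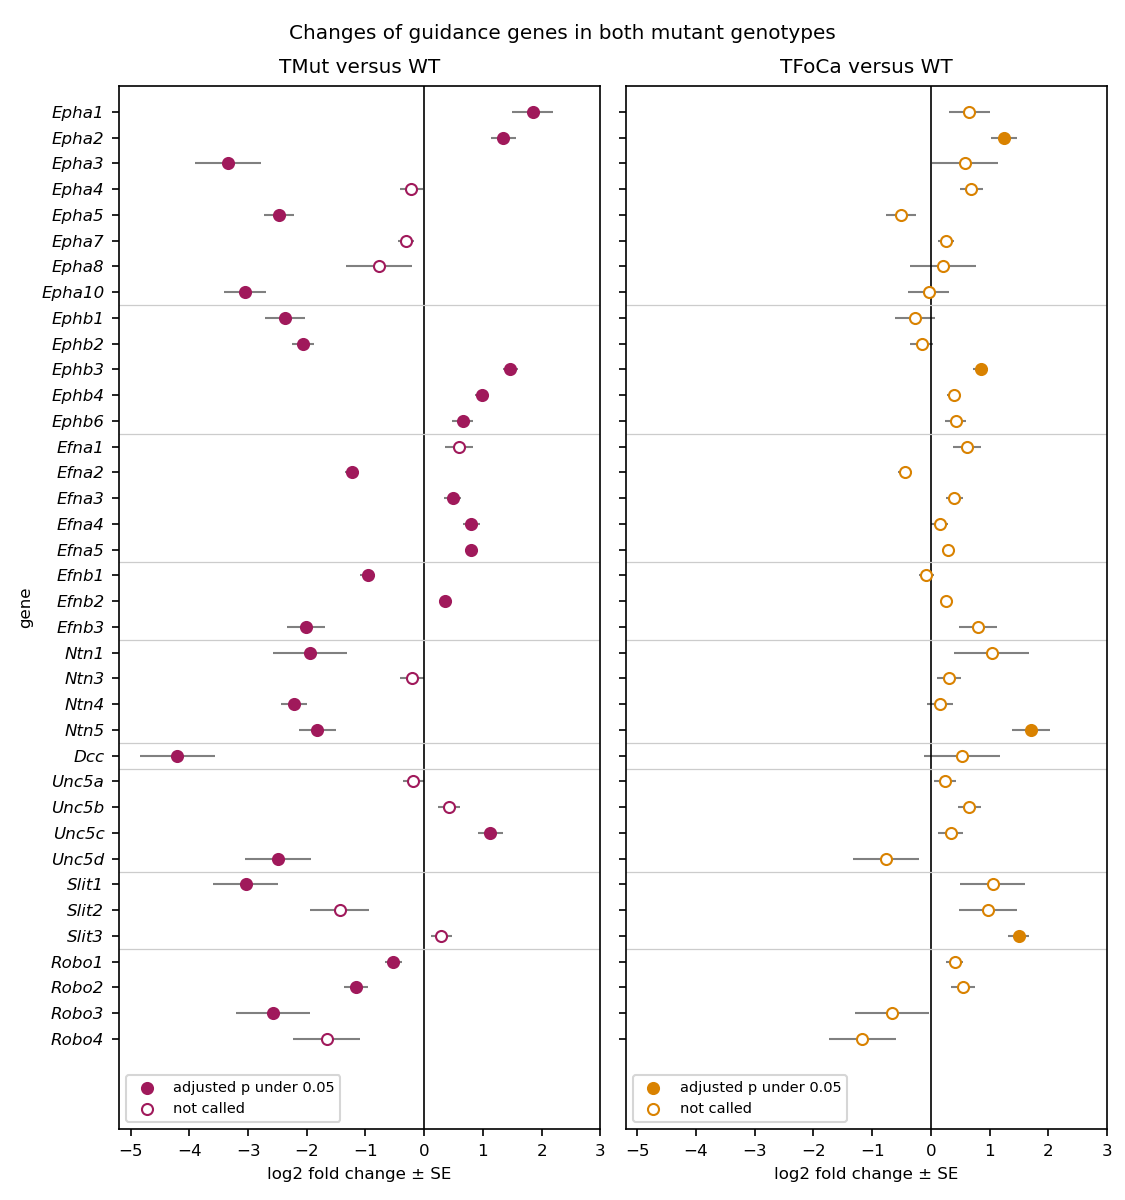
Log2 fold change of each guidance gene with its standard error in TMut against WT (left panel) and TFoCa against WT (right panel); filled points are called at an adjusted p under 0.05 and grey lines separate the families. The TMut points spread from -4.20 (Dcc) to 1.85 (Epha1), and the 4 filled points in TFoCa all lie right of 0.

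The Eph receptors split in TMut lines, where 18.4% of all genes were called higher and 20.4% lower. Of the 13, 5 rose (Epha1, Epha2, Ephb3, Ephb4 and Ephb6) and 5 fell (Epha3, Epha5, Epha10, Ephb1 and Ephb2) against WT, and 3 were not called. In TFoCa lines 2 rose, Epha2 and Ephb3, and no Eph receptor was lower by limma, edgeR or DESeq2, or at an unadjusted limma p under 0.05. DESeq2 called 2 more higher in TFoCa, Epha4 and Ephb4, and edgeR called Epha2 and Ephb3.

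Epha2, a receptor of epithelial and embryonic cells, had 3229 and 4949 normalized counts in TMut, 4467 and 3105 in TFoCa, and 1443, 1746 and 1536 in WT. All 4 mutant lines stood above all WT lines, and the mutants overlapped each other. It rose by 1.35 ± 0.22 on the log2 scale in TMut (adjusted p = 0.00254) and by 1.25 ± 0.22 in TFoCa (adjusted p = 0.0147). The TFoCa call was lost without WT line 1 (1.18, adjusted p = 0.0553) or WT line 3 (1.23, adjusted p = 0.0561). Ephb3, which with Ephb2 guides commissural axons of the forebrain, had 6070.1 and 6692 normalized counts in TMut, 4751 and 3651 in TFoCa, and 2309.6, 2400.4 and 2227 in WT. The 3 genotypes did not overlap, with TMut highest and WT lowest. The rise was 1.46 ± 0.13 in TMut (2.76-fold, adjusted p = 0.000227) and 0.85 ± 0.13 in TFoCa (1.80-fold, adjusted p = 0.00996), and TMut exceeded TFoCa by 0.61 ± 0.14 (adjusted p = 0.0134). That last call was lost without TMut line 2 (adjusted p = 0.0784). Epha1, an EphA receptor of epithelia, had 380.1 and 839 normalized counts in TMut, 279.7 and 217 in TFoCa, and 129, 169 and 175 in WT. The genotypes again did not overlap, although the TMut lines were far apart. It rose by 1.85 ± 0.35 in TMut (adjusted p = 0.00489) and differed by 0.65 ± 0.35 in TFoCa (adjusted p = 0.284). Ephb4, the ephrin-B2 receptor known from veins, rose by 0.98 ± 0.11 in TMut (adjusted p = 0.000627), with 5926 and 6314 normalized counts in TMut and 2876 to 3440.1 in WT. Ephb6, an Eph receptor without kinase activity, rose by 0.66 ± 0.18 in TMut (adjusted p = 0.0212), a call lost when any 1 of the 3 WT lines or either TMut line was left out (adjusted p = 0.0537 to 0.0825).

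Ephb2, a receptor of axon pathfinding and synapses, had 2812 and 1692 normalized counts in TMut, 8186 and 8239 in TFoCa, and 8963, 8751 and 9761 in WT. Both TMut lines lay far below the rest, and the TFoCa lines just under WT. Ephb2 fell by 2.07 ± 0.19 in TMut (4.19-fold lower, adjusted p = 0.00028) and differed by -0.16 ± 0.19 in TFoCa (adjusted p = 0.662). Ephb1, another receptor of axon pathfinding, at the optic chiasm, had 465 and 209 normalized counts in TMut, 1618 and 1115 in TFoCa, and 1326, 1694 and 1895 in WT. Both TMut lines were low, and TFoCa overlapped WT. The change was -2.37 ± 0.34 in TMut (adjusted p = 0.00149) and -0.27 ± 0.34 in TFoCa (adjusted p = 0.665).

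Epha3, a high-affinity receptor of ephrin-A5, had 440.0 and 103 normalized counts in TMut, 2512 and 4197 in TFoCa, and 1582, 2381 and 2710.3 in WT. Both TMut lines lay below all others but differed from each other by 4.26-fold, and TFoCa overlapped WT. Epha3 fell by 3.34 ± 0.56 in TMut (adjusted p = 0.00297), with values of -4.38 without TMut line 1 and -2.30 without TMut line 2, and its value in TFoCa was 0.58 ± 0.56 (adjusted p = 0.565). Epha10, an Eph receptor with an inactive kinase, had 202 and 78.0 normalized counts in TMut, 1033 and 1014 in TFoCa, and 945, 1003 and 1218 in WT. The TFoCa lines lay inside the WT range and the TMut lines far under it. It fell by 3.05 ± 0.35 in TMut (adjusted p = 0.000624), with values of -3.73 without TMut line 1 and -2.37 without line 2, and its value in TFoCa was -0.04 ± 0.35 (adjusted p = 0.965). Epha5, a receptor of forebrain neurons, had 235 and 166 normalized counts in TMut, 876 and 682 in TFoCa, and 812, 1254 and 1306 in WT. TMut was lowest, and TFoCa overlapped the lower end of WT. Its change was -2.47 ± 0.26 in TMut (adjusted p = 0.000437) and -0.51 ± 0.26 in TFoCa (adjusted p = 0.267).

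The 3 Eph receptors with no call against WT were Epha4, Epha7 and Epha8. Epha4, a receptor for both ephrin classes, had -0.22 ± 0.20 in TMut against WT (adjusted p = 0.401) and 0.69 ± 0.20 in TFoCa against WT (adjusted p = 0.0694). It was lower in TMut than in TFoCa (-0.91 ± 0.21, adjusted p = 0.0152), and so was Epha7, an EphA receptor of the developing cortex (-0.57 ± 0.15, adjusted p = 0.0229). Both calls were lost without TMut line 2 (adjusted p = 0.0849 and 0.099) and without TFoCa line 2 (adjusted p = 0.0602 and 0.0648). Epha8 had 43.8 and 197 normalized counts in TMut, 220.3 and 152 in TFoCa and 140.3 to 179 in WT, and TMut line 1 alone was low. In TMut against WT, the value of Epha8 was -1.84 without TMut line 2, and that of Epha7 was -0.55 without TMut line 1. Each of these values rests on 1 TMut line.

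**Figure D3:**
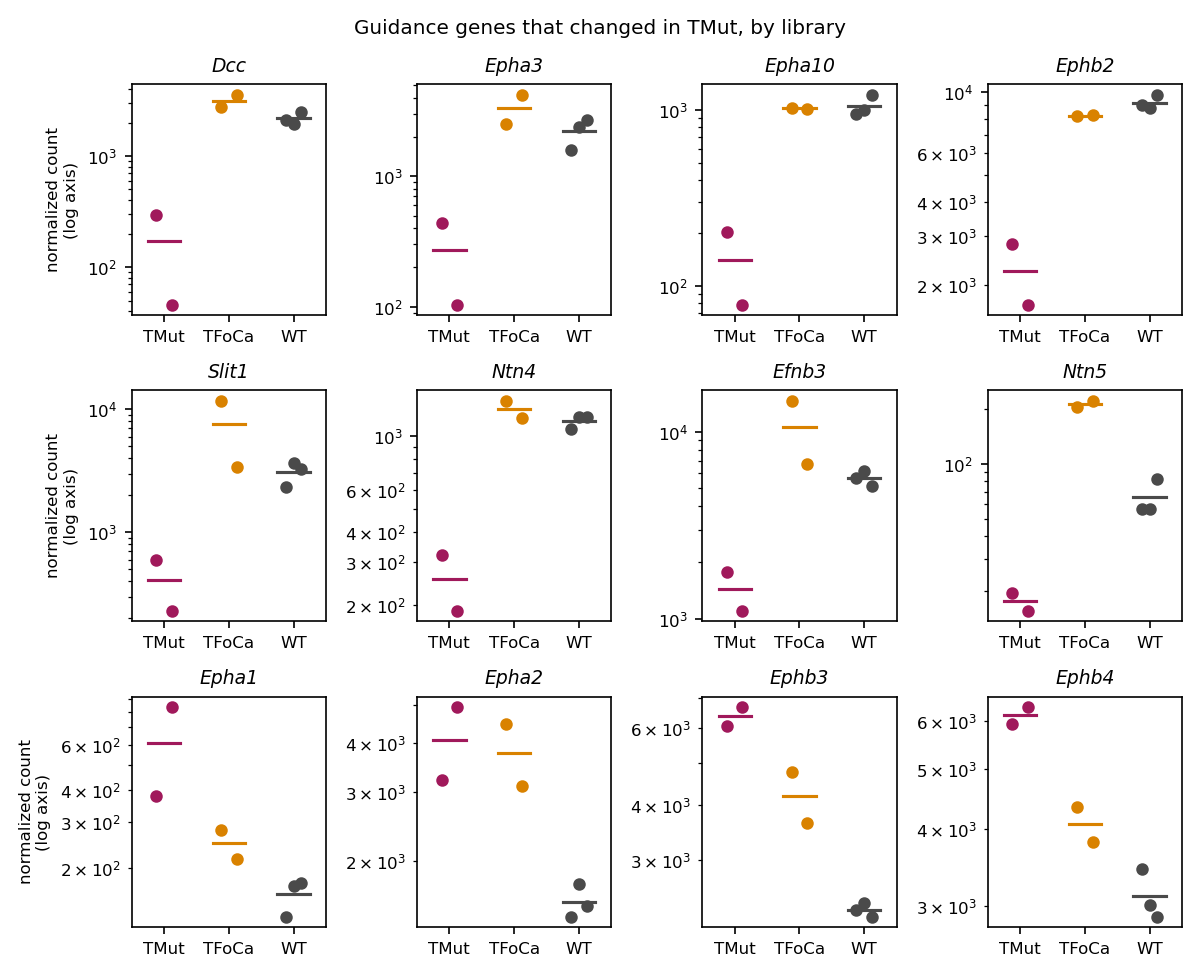
Normalized count (log axis) of 12 guidance genes in each line of TMut (purple), TFoCa (orange) and WT (grey); bars are group means. In the top row and for Slit1, Ntn4 and Efnb3 the TMut lines lie below both other genotypes, Ntn5 is split between low TMut and high TFoCa, and in the bottom row (Epha1, Epha2, Ephb3 and Ephb4) both TMut lines lie above WT.

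Divided by transcript length, the Eph receptor RNA of TMut lines was made up differently from that of WT, while its sum ranged less. The summed level was 5099.5 and 5460.4 normalized counts per kilobase in TMut, 6373 and 5829 in TFoCa, and 4275, 4624 and 4789 in WT. Epha2, Ephb3 and Ephb4 together made up 68.0% and 75.6% of that sum in TMut, 49.3% and 41.8% in TFoCa, and 38.5%, 35.6% and 31.8% in WT. The TFoCa lines lay between the other genotypes, and no genotypes overlapped. All 3 genes were called higher in TMut against WT, so their larger share there restates those calls. Epha1 and Ephb6, also called higher in TMut, were not included. Ephb2 contributed 5.06% and 2.84% in TMut, 11.8% and 12.96% in TFoCa, and 19.2%, 17.4% and 18.7% in WT. It ranked first of the 13 in each WT line and in no mutant line, where Ephb4 led in both TMut lines and in TFoCa line 2, and Epha2 in TFoCa line 1. These shares describe the same counts as the tests of single genes, and no further test was made of them.

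**Figure D4:**
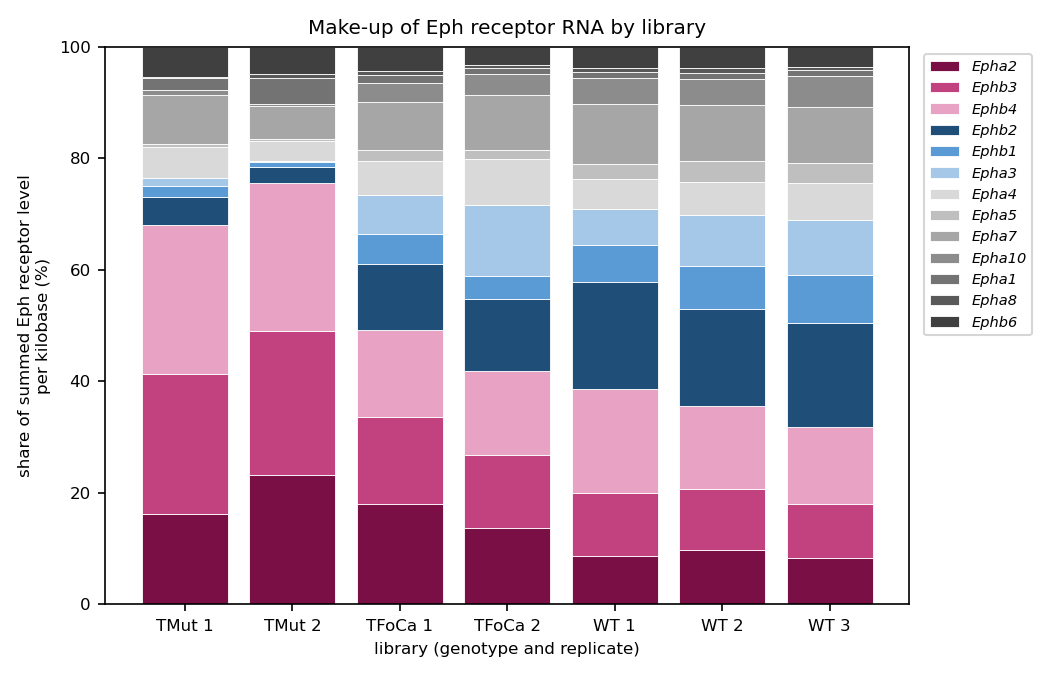
Share of each of the 13 Eph receptors in their summed level per kilobase (%), 1 bar per library. The 3 red and pink segments (Epha2, Ephb3 and Ephb4) fill 68.0% and 75.6% of the TMut bars and 31.8% to 38.5% of the WT bars, and the dark blue Ephb2 segment shrinks to 2.84% in TMut line 2.

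Ephrins also split in TMut lines, where 18.4% of all genes were called higher and 20.4% lower. Of the 8, Efna3, Efna4, Efna5 and Efnb2 rose, Efna2, Efnb1 and Efnb3 fell, and Efna1 was not called (0.60 ± 0.24, adjusted p = 0.0811). None of the 8 was called in TFoCa against WT by limma or edgeR, where 2 were called by DESeq2 (Efna2 lower and Efnb3 higher) and 6 had an unadjusted limma p under 0.05. Efnb3, the ephrin of the spinal cord midline that stops corticospinal axons from recrossing, had 1769 and 1102 normalized counts in TMut, 14587 and 6691 in TFoCa, and 5681, 6166 and 5141 in WT. The TMut lines were lowest and both TFoCa lines lay above WT, line 1 by far. Efnb3 fell by 2.02 ± 0.32 in TMut (adjusted p = 0.00248), and its value in TFoCa was 0.81 ± 0.32 (adjusted p = 0.166). Without TFoCa line 2 that value was 1.37, from 1 TFoCa line. Efna2, an ephrin-A ligand of retinal and cortical maps, had 1052 and 944 normalized counts in TMut, 1625 and 1824 in TFoCa, and 2241, 2234 and 2576 in WT. The 3 genotypes did not overlap, with TFoCa in between. The change was -1.23 ± 0.12 in TMut (adjusted p = 0.000331) and -0.45 ± 0.12 in TFoCa (adjusted p = 0.0593), and TMut lay below TFoCa (-0.79 ± 0.13, adjusted p = 0.00451).

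Efnb1, an ephrin of neural progenitors and the neural crest, had 3608 and 3039 normalized counts in TMut, 6875 and 5445 in TFoCa and 6018 to 6733 in WT, and fell by 0.96 ± 0.13 in TMut (adjusted p = 0.0013). Efna5, the repellent of retinal axons in the tectum, had 2081 and 2123 normalized counts in TMut, 1417 and 1556 in TFoCa and 1175 to 1243 in WT, and rose by 0.79 ± 0.10 in TMut (adjusted p = 0.000991). Efna4 rose by 0.80 ± 0.14 in TMut (adjusted p = 0.00378). The smaller rises of Efna3 (0.49 ± 0.15, adjusted p = 0.0338) and of Efnb2, the ligand of arteries (0.35 ± 0.09, adjusted p = 0.0204), were lost without WT line 2 or 3 or either TMut line (adjusted p = 0.0705 to 0.124 for Efna3 and 0.0561 to 0.11 for Efnb2). Per kilobase the 8 ephrins summed to 5581 and 5311 normalized counts in TMut, 10405 and 7389 in TFoCa, and 6941 to 7450.2 in WT.

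Of the 4 netrins, 3 fell in TMut lines and none rose by limma, edgeR or DESeq2, or at an unadjusted limma p under 0.05. Over all genes, 20.4% were called lower in TMut. Ntn4, a laminin-binding netrin of basement membranes, had 323 and 188 normalized counts in TMut, 1397 and 1192 in TFoCa, and 1069, 1204 and 1196 in WT. TMut stood well under all others, and TFoCa line 2 lay inside the WT range. Ntn4 fell by 2.22 ± 0.22 in TMut (adjusted p = 0.000387) and had 0.16 ± 0.22 in TFoCa (adjusted p = 0.703). Ntn5, a netrin known from adult neurogenic niches of the mouse, had 19.6 and 15.6 normalized counts in TMut, 204 and 220.3 in TFoCa, and 56.5, 56.4 and 82.8 in WT. No genotypes overlapped, and the mutants stood on opposite sides of WT. Ntn5 fell by 1.82 ± 0.32 in TMut (adjusted p = 0.00392), rose by 1.71 ± 0.32 in TFoCa (3.27-fold, adjusted p = 0.0194), and differed between TMut and TFoCa by -3.53 ± 0.35 (adjusted p = 0.00156). The TFoCa call was lost without WT line 1 (1.62, adjusted p = 0.0715), WT line 2 (1.62, adjusted p = 0.0843) or TFoCa line 2 (1.65, adjusted p = 0.0598).

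Ntn1, the founding netrin and a chemoattractant for commissural axons, had 6753 and 2229 normalized counts in TMut, 65013 and 14426 in TFoCa, and 13134, 16621 and 15293 in WT. The TMut lines were lowest, TFoCa line 1 was far above every other line, and TFoCa line 2 lay inside the WT range. Ntn1 fell by 1.95 ± 0.64 in TMut (adjusted p = 0.0444) and had 1.03 ± 0.64 in TFoCa (adjusted p = 0.359). The TMut call was lost without WT line 1, 2 or 3 (adjusted p = 0.0824, 0.106 and 0.104). The change was -1.15 without TMut line 2 and -2.74 without TMut line 1, each from 1 TMut line. The TMut call was also lost with edgeR's quasi-likelihood test (-1.71, adjusted p = 0.0724) and with DESeq2 (-1.74, adjusted p = 0.053). Ntn3 was not called by limma with all 7 lines, and in TFoCa against WT its value was 0.66 without TFoCa line 2, from 1 TFoCa line. Per kilobase the 4 netrins summed to 1392 and 594 normalized counts in TMut, 11838 and 3074 in TFoCa, and 2727 to 3366 in WT.

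Dcc, the netrin receptor through which Ntn1 attracts axons, fell most of the 37 genes. It had 297 and 45.6 normalized counts in TMut, 2771 and 3550.4 in TFoCa, and 2110.4, 1962 and 2469.9 in WT. The TMut lines were far below the others and differed from each other by 6.51-fold, and both TFoCa lines lay above WT. Dcc fell by 4.20 ± 0.64 in TMut against WT (18.4-fold lower, adjusted p = 0.00201), with values of -5.54 without TMut line 1 and -2.86 without line 2. Its value in TFoCa against WT was 0.53 ± 0.64 (adjusted p = 0.655), and the difference of TMut from TFoCa was -4.73 ± 0.70 (adjusted p = 0.00326). Of the 4 UNC5 receptors, which turn the response to netrin into repulsion, 1 rose, 1 fell and 2 were not called in TMut against WT. Over all genes, 18.4% were called higher and 20.4% lower, and 1 of 4 is close to those shares. Unc5c had 1031 and 999 normalized counts in TMut, 727 and 473 in TFoCa, and 517, 500.1 and 387 in WT. TMut was highest and TFoCa line 2 lay inside the WT range. Unc5c rose by 1.13 ± 0.22 in TMut (adjusted p = 0.00556), against 0.34 ± 0.22 in TFoCa (adjusted p = 0.381). Unc5d, a receptor of migrating upper-layer neurons, had 59.9 and 24.01 normalized counts in TMut, 224 and 73.0 in TFoCa, and 163, 280.2 and 228 in WT. TMut was lowest, and TFoCa line 2 lay between TMut and WT. The change of Unc5d in TMut was -2.49 ± 0.56 (adjusted p = 0.0105), -3.13 without TMut line 1, and -1.85 with no call without TMut line 2 (adjusted p = 0.0729). Unc5a and Unc5b were not called by limma with all 7 lines, with values in TMut against WT of -0.18 (adjusted p = 0.459) and 0.42 (adjusted p = 0.116). In TFoCa against WT Unc5b had 0.66 ± 0.19 (adjusted p = 0.0728). Whether Unc5b was called there depended on the TMut lines, which add to the shared estimate of the spread. In TMut against WT its value was 0.78 without TMut line 1, from 1 TMut line.

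Of the 3 Slits 1 fell in TMut lines and 1 rose in TFoCa lines, and of the 4 Robo receptors 3 fell in TMut. Over all genes, 20.4% were called lower in TMut and 5.25% higher in TFoCa. A family of 3 or 4 genes is too small to set against these shares. No Robo receptor was called in TFoCa by limma, edgeR or DESeq2, with 2 at an unadjusted limma p under 0.05. Slit1, a repellent of forebrain axons, had 589.7 and 229 normalized counts in TMut, 11679 and 3389 in TFoCa, and 2354, 3649 and 3264 in WT. The TMut lines were lowest, TFoCa line 1 was highest and TFoCa line 2 lay inside the WT range. Slit1 fell by 3.04 ± 0.55 in TMut (adjusted p = 0.00426), with values of -3.72 without TMut line 1 and -2.36 without line 2, and had 1.05 ± 0.55 in TFoCa (adjusted p = 0.281). Slit2, a midline repellent that acts with Slit1, had 2366 and 1429.9 normalized counts in TMut, 19545 and 4946 in TFoCa, and 4855, 5169.8 and 4963 in WT. As with Slit1, the TMut lines were lowest, TFoCa line 1 was highest and TFoCa line 2 lay inside the WT range. In TMut against WT Slit2 was not called (-1.44 ± 0.50, adjusted p = 0.053), although it was called without TFoCa line 1 (adjusted p = 0.00165) or TFoCa line 2 (adjusted p = 0.0016), whose lines add to the shared estimate of the spread. In TFoCa against WT Slit2 had 0.98 ± 0.50 (adjusted p = 0.267), and 1.97 without TFoCa line 2, from 1 TFoCa line. Slit3, the third Slit, had 1431 and 1046 normalized counts in TMut, 2662 and 2992 in TFoCa, and 845, 1126 and 1045 in WT. Here both TFoCa lines were high and close together, and TMut overlapped WT. Slit3 rose by 1.499 ± 0.18 in TFoCa (2.83-fold, adjusted p = 0.00467), a call kept whichever line was left out, and had 0.29 ± 0.18 in TMut (adjusted p = 0.227). Per kilobase it made up 44.5% and 52.1% of the Slit sum in TMut, 11.2% and 34.3% in TFoCa, and 15.2% to 15.7% in WT.

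Robo3, the receptor that lets commissural axons cross the midline, had 1849.8 and 321 normalized counts in TMut, 2345 and 3632 in TFoCa, and 5460.3, 3687 and 4856 in WT. All 4 mutant lines lay below WT, and TMut line 2 was far below the rest. Robo3 fell by 2.58 ± 0.63 in TMut (adjusted p = 0.0144), with values of -3.84 without TMut line 1 and -1.32 without line 2, and had -0.66 ± 0.63 in TFoCa (adjusted p = 0.563). Robo2, a Slit receptor of axons and of dividing progenitors, had 888 and 558 normalized counts in TMut, 2549.8 and 2097 in TFoCa, and 1411, 1692 and 1651 in WT. The genotypes did not overlap, with TMut below WT and TFoCa above it. Robo2 fell by 1.16 ± 0.21 in TMut (adjusted p = 0.00378) and had 0.55 ± 0.21 in TFoCa (adjusted p = 0.142), and TMut lay below TFoCa (-1.71 ± 0.22, adjusted p = 0.00234). Robo1, its close relative, fell by 0.52 ± 0.14 in TMut (adjusted p = 0.0222), a call lost without WT line 2, WT line 3 or TMut line 2 (adjusted p = 0.0729, 0.0763 and 0.148). Robo4, an endothelial Robo, had 12.7 and 40.8 normalized counts in TMut, 45.98 and 23.1 in TFoCa and 55.1 to 98.8 in WT, and it was not called (-1.66 ± 0.57 in TMut, adjusted p = 0.0521). Whether Robo4 was called depended on the TFoCa lines, which add to the shared estimate of the spread. Its value in TMut against WT was -2.47 without TMut line 2, from 1 TMut line.

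The TFoCa lines differed from each other by more than 2-fold in 5 of the 37 genes, or 13.5%, a share close to the 13.6% of all genes. Ntn1, Slit2, Slit1 and Efnb3 were 4.51-fold, 3.95-fold, 3.45-fold and 2.18-fold higher in TFoCa line 1 than in TFoCa line 2. Unc5d was the other such gene. Relative to the WT mean, TFoCa line 1 had 4.33 times the Ntn1 level and TFoCa line 2 had 0.961 times. Slit3 and Ntn5 were raised in both, at 2.65 and 2.98 times the WT mean for Slit3 and 3.13 and 3.38 times for Ntn5. Genes of the floor plate, on a list of 12 chosen after the values were seen, varied between the lines too. The 12 summed to 16425 and 12174 normalized counts in TMut, 97833 and 33042 in TFoCa, and 28957, 35933 and 33336 in WT. In TFoCa against WT 0 of the 12 were called, with 9 positive values and a median of 0.45, where 8.77% of all genes were called. In TMut against WT 10 of the 12 were called lower, with a median of -3.06, where 20.4% of all genes were called lower. Shh, the morphogen secreted by the floor plate, had 716 and 145 normalized counts in TMut, 9945 and 2181 in TFoCa, and 2889, 3361 and 3404 in WT. Foxa2, its transcription factor, had 323 and 216 in TMut, 2564 and 529 in TFoCa, and 864, 920.4 and 917 in WT. Both genes were highest in TFoCa line 1, the line with the most Ntn1, Slit1, Slit2 and Efnb3, and their part in those values was not tested. The TMut lines differed by more than 2-fold in 11 of the 37 genes, or 29.7%, against 13.4% of all genes. Of these, 8 were higher in TMut line 1 (among them Dcc, Robo3, Epha3 and Ntn1, by 6.51-fold, 5.77-fold, 4.26-fold and 3.03-fold) and 3 in TMut line 2 (Epha1, Epha8 and Robo4).

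**Figure D5:**
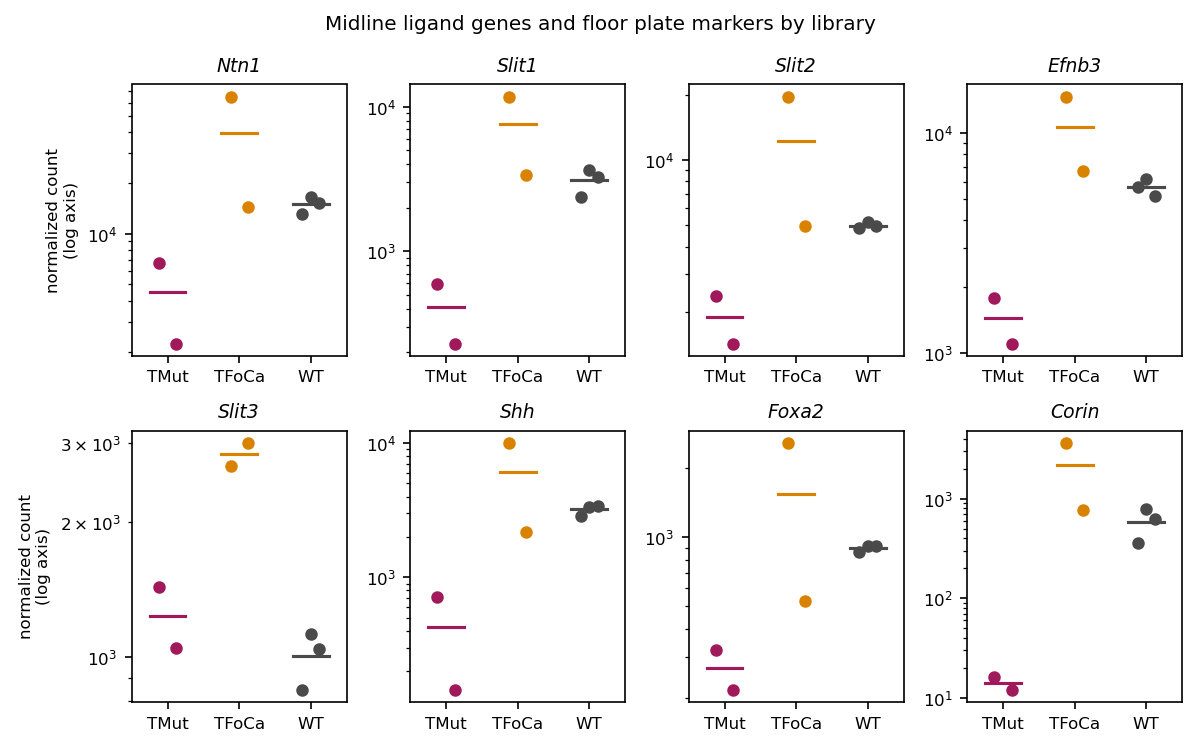
Normalized count (log axis) of 5 ligand genes (Ntn1, Slit1, Slit2, Efnb3, Slit3) and 3 floor plate genes (Shh, Foxa2, Corin) in each line of TMut (purple), TFoCa (orange) and WT (grey); bars are group means. Apart from Slit3, each gene has its highest value in TFoCa line 1, for example 65013 for Ntn1 and 9945 for Shh, and a much lower value in TFoCa line 2.

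In TMut against TFoCa, the 19 lower genes included Dcc, Slit1, Epha3, Ntn5, Epha10, Ntn1 and Efnb3, with log2 differences of -4.73, -4.09, -3.92, -3.53, -3.02, -2.98 and -2.82. The Slits fell together in this comparison, with -2.42 ± 0.55 for Slit2 (adjusted p = 0.0131) and -1.21 ± 0.20 for Slit3 (adjusted p = 0.00417). Leaving out a TFoCa line moved the values of 3 ligands: without TFoCa line 1 the differences were -3.20 for Slit1, -1.43 for Slit2 and -1.89 for Ntn1, and without TFoCa line 2 they were -4.98, -3.41 and -4.07. Leaving out a TMut line moved others: without TMut line 1 the differences were -6.07 for Dcc, -4.96 for Epha3, -3.70 for Epha10, -4.77 for Slit1 and -3.78 for Ntn1, and without TMut line 2 they were -3.40, -2.88, -2.34, -3.41 and -2.18. The 6 higher genes were Epha1, Unc5c, Efna4, Ephb3, Ephb4 and Efna5, at 1.19, 0.79, 0.66, 0.61, 0.59 and 0.50. Without TMut line 2, 10 of the 25 calls were lost, namely these 6 (adjusted p = 0.0597 to 0.211) and Epha4, Epha7, Ntn1 (adjusted p = 0.0878) and Slit2 (adjusted p = 0.0792). The Epha1 call was also lost on leaving out any other single line, except TMut line 1, and the Unc5c call without WT line 1 or 2, TFoCa line 2 or TMut line 1.

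Genes that work with these cues were read from 3 lists with 50 genes in all, 1 of which, Nck2, is on 2 lists. In TMut against WT, 34 of the 50 were called, 7 higher and 27 lower, with a median log2 fold change of -0.54, where 38.8% of all genes were called. Of 18 other netrin and UNC5 genes 3 rose and 11 fell, of 15 other SLIT and ROBO genes 3 rose and 8 fell, and of 18 other ephrin and Eph genes 2 rose and 8 fell. Draxin, a secreted repellent that binds netrin and DCC, had 194 and 93.6 normalized counts in TMut, 819 and 557 in TFoCa and 1413 to 1628 in WT, and fell by 3.51 ± 0.31 in TMut (adjusted p = 0.000227). Dscam, an adhesion receptor that also binds netrin, fell by 3.36 ± 0.40 (adjusted p = 0.000752), with values of -4.02 without TMut line 1 and -2.69 without line 2, and its relative Dscaml1 fell by 2.28 ± 0.29 (adjusted p = 0.000991). Flrt2, a ligand of UNC5 receptors, rose by 0.89 ± 0.11 (adjusted p = 0.001). Among genes downstream of Robo, Srgap3 and Srgap1, GTPase-activating proteins that bind Robo, fell by 2.53 ± 0.33 (adjusted p = 0.00107) and 1.18 ± 0.14 (adjusted p = 0.000742). The value of Srgap3 was -3.21 without TMut line 1 and -1.85 without line 2. Evl, an actin regulator, and Pak1, a kinase downstream of Rac, fell by 0.99 ± 0.11 (adjusted p = 0.000492) and 0.85 ± 0.10 (adjusted p = 0.000624). Of the genes downstream of Eph receptors, Chn1, the chimaerin of EphA4 signalling, fell by 1.33 ± 0.12 (adjusted p = 0.000276), and the kinase Fyn fell by 1.004 ± 0.16 (adjusted p = 0.00247).

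In TFoCa against WT, 3 of the 50 partner genes were called, all higher, with a median of 0.01, where 8.77% of all genes were called. They were Flrt2 (0.69 ± 0.11, adjusted p = 0.0129), Nell1, a secreted protein of the family that binds Robo3 (1.28 ± 0.31, adjusted p = 0.0433), and Nck2, an adaptor of the actin cytoskeleton (0.57 ± 0.11, adjusted p = 0.0221). Each call was lost without at least 1 line: Flrt2 without WT line 3 (adjusted p = 0.0557), Nck2 without any 1 WT line (adjusted p = 0.0626 to 0.0867), and Nell1 without any 1 WT line or TFoCa line 1 (adjusted p = 0.0864 to 0.132). In TMut against TFoCa, 25 of the 50 were called, 2 higher and 23 lower, with a median of -0.45, where 35.8% of all genes were called (17.3% higher and 18.5% lower). Among them Rgmb and Rgma, membrane-bound ligands of the receptor neogenin, fell by 1.19 ± 0.15 (adjusted p = 0.0021) and 2.04 ± 0.35 (adjusted p = 0.00485), and Gpc1, a proteoglycan that binds Slit, fell by 1.13 ± 0.15 (adjusted p = 0.00234). Rgma had 4529 and 3018 normalized counts in TMut, 22941 and 10099.8 in TFoCa, and 10386 to 10643 in WT, so TFoCa line 1 stood above all others. Without that line its difference was -1.45, and without TFoCa line 2 it was -2.63.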

How the data were processed

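RNA of neural stem cells was sequenced in 7 libraries. Per the submitters' processing notes, reads were trimmed with Trim Galore 0.6.5, aligned with STAR 2.7.3a to mm39 and counted with featureCounts, and the authors deposited DESeq2-normalized values, a signal in reads divided by 1 size factor per library (0.82 to 1.58); the strand setting is not given in the sources used here, so reads from overlapping or antisense genes cannot be told apart. In 6 libraries the smallest step of the deposited signal gave whole reads directly; with the size factors, 100% of values in all 7 libraries were whole reads at a tolerance of 0.001 read. Of values from 1 to 20 reads, 70.3% to 79.3% were even, and whether both mates of a pair were counted was not tested. Unused sample columns numbered 0.

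From these values, log2(normalized count + 1) was tested with limma 3.58.1 (R 4.3.3), two-sided, with an intensity trend and all 3 genotypes in 1 model, for the 18134 genes at 10 or more in at least 2 libraries. P-values measure the spread between libraries, each counted as 1 line, with 2 or 3 per genotype. Log2 fold changes are on that scale and understate the change of low genes. On simulated counts the test recovered 55% of genes changed by 1 log2 unit and 92% of those changed by 2 in TMut against WT (11 false calls among 18096 genes); in TFoCa against WT it recovered 57% and 90% (14 false calls, 18098 genes) and in TMut against TFoCa 51% and 91% (14 false calls, 18096 genes). The simulation changed 100 genes by each amount, kept all other genes equal and used 1 spread per gene for all genotypes. Far more genes were called in these data, so the rates may not hold for them. Levels per kilobase used the longest coding transcript of each gene in GENCODE vM21 (GRCm38).

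Members and lists were chosen with earlier results of these data known; the floor plate list was added after the values were seen. Values in every line are given for the 21 members called in a comparison with a mean of 100 or more in their highest group and a log2 change of 1 or more; partner genes named are among the up to 4 called genes with the smallest adjusted p in each list and comparison. Alternatives were pseudocounts of 0.5 and 8, no filter, a mean of 50 or more, TMM factors, quantile normalization, edgeR 4.0.16 and DESeq2 1.42.0 on the recovered counts, limma-voom, fits to 2 genotypes, a replicate block, a threshold of 0.01, and leaving out each line.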

Additional observations from a re-analysis of the deposited data

How the results depend on the processing

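No called guidance gene changed sign in any of the 3 comparisons under any alternative tried, and scaling moved the median of all genes by less than 0.1. Counts of calls in TFoCa against WT moved most: 9 guidance genes with DESeq2 and 2 at an adjusted p under 0.01, against 4; 7 and 0 partner genes, against 3; and 2947 and 342 of all genes, against 1590. At an adjusted p under 0.01, TMut against WT gave 4008 of all genes, against 7043, and TMut against TFoCa gave 15 guidance genes (against 25), 16 partner genes (against 25) and 2825 of all genes (against 6491). A fit to TMut and TFoCa alone gave 16 partner genes and 3419 of all genes. Apart from the replicate block and the left-out lines below, the other settings left every such count within 1.5 times. Leaving out 1 line at a time gave 2 to 7 guidance genes, 0 to 7 partner genes and 495 to 1768 of all genes in TFoCa against WT. In TMut against WT it gave 22 to 29, 25 to 36 and 4329 to 8127, and in TMut against TFoCa 17 to 26, 15 to 28 and 3164 to 5940. With 1 line left in a mutant genotype, that line is assumed to vary like the other groups.

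The replicate numbers are shared between genotypes, but nothing in the labels says that they pair the lines, and deviations of same-numbered lines correlated at only 0.019 to 0.18, so the numbers were not taken to pair them. With the replicate number as a block, TFoCa against WT gave 1 guidance gene (Slit3 was kept), 0 partner genes and 555 of all genes, and TMut against WT gave 22 guidance genes and 4620 of all genes. Of the 37 genes, 35 had a WT mean of 100 or more normalized counts, and no alternative varied the depth.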
